A study of Mus musculus with 10 samples.

Results

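The 10 genes described here encode fatty acid desaturases (Scd1, Scd2, Fads1, Fads2, Fads3 and Fads6) and fatty acid elongases (Elovl1, Elovl2, Elovl5 and Elovl6). They were taken by symbol from a table of 17359 genes in mouse liver. All 10 were in the table, and all 10 were among the 12789 genes kept after a filter on low counts. All mice ate a high-fat diet, and the controls had free access to it (AL, ad libitum, n = 3). The other mice went through a weekly cycle in which food energy was cut by 50% on day 1, by 70% on day 2 and day 3 and by 50% again on day 4, and was unrestricted from day 5 to day 7. Livers of these mice were sampled on day 3, under restriction (LC, n = 4), or on day 7, after refeeding (RF, n = 3). The sources used here give no strain, sex, age, number of completed cycles or hour of sampling. Nothing in the labels says that the libraries came from separate animals, so the p-values describe the spread between these libraries, which may in part be technical.

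Desaturases of the endoplasmic reticulum place double bonds in fatty acyl chains, using electrons passed on by cytochrome b5 and its reductase. Elongases catalyse the condensing step of the microsomal cycle that lengthens a chain, and other enzymes complete each turn. In liver, SCD1 turns palmitate and stearate into monounsaturated fatty acids, while FADS2, FADS1, ELOVL5 and ELOVL2 carry dietary linoleic and alpha-linolenic acid on to arachidonic and docosahexaenoic acid. Transcription of many of these genes is known to respond to SREBP1 and to the liver X receptor, with insulin and sugar raising it and polyunsaturated fat lowering it.

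Library totals lay between 13871500 and 15899500 estimated counts. Levels are given as CPM, each gene's counts relative to the library's total, scaled with edgeR's TMM factors (trimmed mean of M values), and, where genes are compared with each other, as deposited FPKM, which are also scaled by transcript length. The scaling matters here, because the TMM factors were 0.827 to 0.952 in the AL libraries, 1.06 to 1.18 in the LC libraries and 0.964 to 0.969 in the RF libraries. With library totals alone the median log2 fold change of all genes at LC against AL was 0.36, against 0.05 with TMM. The hepatocyte marker list was detected in all groups, with a summed level of 94937 to 112928 CPM at AL, 61806 to 76166 CPM at LC and 88720.2 to 92985 CPM at RF. All 10 genes had whole-number counts in every library. Of the 50-base words of the reference Scd1 transcripts, 4.61% also occurred in another gene of these families, against 3.79% for Scd2 and at most 0.157% for the other 8 genes.

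Under restriction, 9 of the 10 genes fell, none rose and Scd2 did not pass, and the falls ranged from 1.39-fold for Elovl1, whose fall was not called with library totals or FPKM, to 22.3-fold for Scd1. This count rests on edgeR's quasi-likelihood test at an adjusted p below 0.05. Over the whole table, 31.5% of genes were called in either direction at LC against AL, 2045 (16.0%) higher and 1989 (15.6%) lower. Without AL replicate 3 or AL replicate 4 the whole table gave 2110 or 2557 calls, while at least 7 of the 10 genes were called without any one library. With library totals alone 4395 genes of the table were higher and 686 lower, and 8 of the 10 genes still fell. The median log2 fold change was −1.58 over the 10 genes and 0.05 over all genes tested. After refeeding the same 9 genes rose from their LC level, again without Scd2, where 22.1% of all genes tested were called, 1452 (11.4%) of them higher and 1369 (10.7%) lower. With library totals alone 673 genes of the table were higher and 2724 lower, and 8 of the 10 genes rose. Without RF replicate 2 or RF replicate 3 the whole table gave 1435 or 1642 calls, and at least 8 of the 10 genes were called without any one library. The median was 1.88 for the 10 genes and −0.02 for all genes. In CPM the groups did not overlap for 9 genes at LC below AL, and 17.2% of all genes had every LC library below every AL library. In FPKM the LC and AL groups overlapped for Scd2, Elovl1 and Elovl6. In CPM all 10 genes had every RF library above every LC library, against 17.8% of all genes. In FPKM the RF and LC groups overlapped for Scd2 and Elovl1. Neither contrast is independent of the other, since both use the 4 LC libraries. In whole liver, fewer cells of a type and less RNA per cell cannot be told apart.

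**Figure D1:**
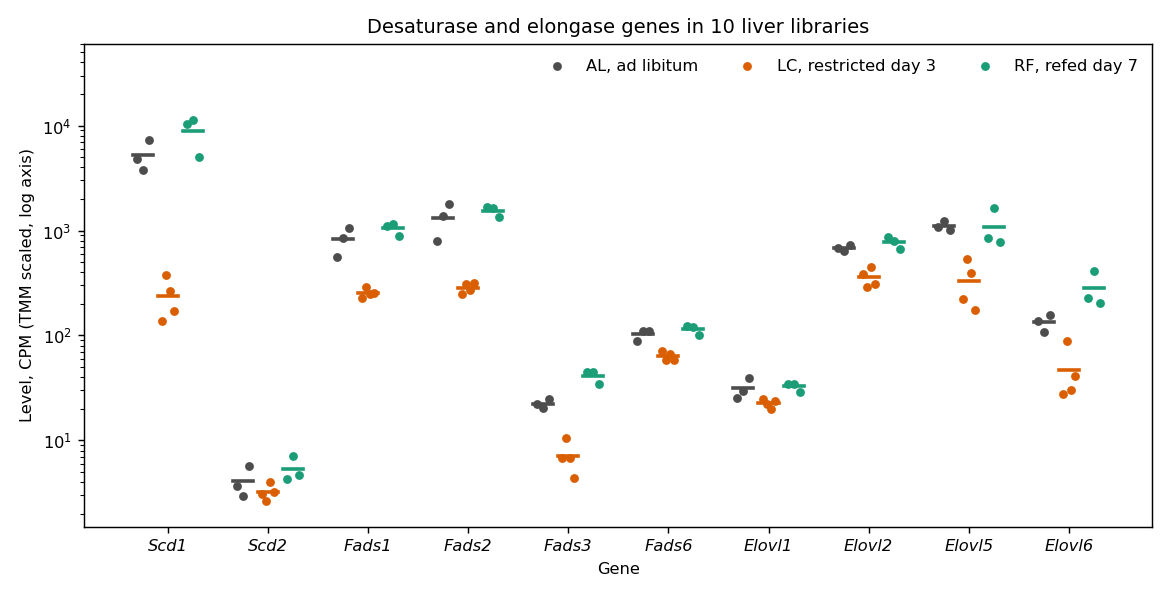
Level of each gene in each of the 10 libraries, in CPM on a log axis, with a bar at the group mean. The LC points lie below all AL points for every gene except Scd2, and below all RF points for all 10 genes.

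Scd1 (NCBI gene 20249) changed most. It was at 4845, 3773 and 7266 CPM in AL replicates 2, 3 and 4. In LC replicates 1 to 4 it was at 136, 379, 266 and 170.5 CPM, and in RF replicates 1 to 3 at 10268, 11299.7 and 5018 CPM. No LC library came near any AL or RF library, while the AL and RF ranges overlapped through RF replicate 3. The LC mean was 4.49% of the AL mean, a log2 fold change of −4.48 (SE 0.44, edgeR adjusted p = 0.00031), place 2 from the lowest among all 12789 genes. From LC to RF the log2 fold change was 5.22 (SE 0.46, edgeR adjusted p = 0.00032), or 37.3-fold. Among all genes of a library ordered by FPKM, Scd1 held places 70 to 168 in the AL libraries, 1028 to 2184 in the LC libraries and 41 to 99 in the RF libraries. Even in the LC libraries each Scd1 value rested on 2161 to 6156 counts.

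Scd2 (NCBI gene 20250), a close relative of Scd1 best known from brain and from early life, was barely present. It was at 3.71, 2.97 and 5.66 CPM in the AL libraries, at 3.08, 2.65, 3.99 and 3.2 CPM in the LC libraries and at 4.27, 7.12 and 4.68 CPM in the RF libraries, each value resting on 38 to 107 counts. The AL and LC ranges overlapped, and the lowest RF library lay just above the highest LC library. The log2 fold change at LC against AL was −0.35 with a 95% interval of −0.93 to 0.23 (edgeR adjusted p = 0.34), an interval that does not reach the fold change of Scd1. From LC to RF it was 0.73 (SE 0.26) and missed the threshold with edgeR (adjusted p = 0.061), but passed with DESeq2 (adjusted p = 0.044) and without AL replicate 4 (edgeR adjusted p = 0.047). In FPKM the LC mean of Scd2 was 97.4% of the AL mean, and LC replicate 3 (0.9) lay above RF replicates 1 and 3 (0.79 and 0.87).

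Fads2, Fads1 and Fads3 lie side by side on chromosome 19. FADS2 carries out the first desaturation of linoleic and alpha-linolenic acid and FADS1 the later one that gives arachidonic acid. FADS3 is known to act on sphingoid bases. Fads2 and Fads3 are in the RefSeq table of promoter windows, which run from 250 bases before to 50 bases after a start site, and both windows are shown because these are the desaturase genes with an entry that changed most. The windows are printed 5′ to 3′ with matches on either strand to the NF-Y box CCAAT, the GC box GGGCGG, the E-box CACGTG and the sterol element core TCACNCCAC in capitals (GRCm38.p6: Fads2 chr19:10101454-10101753, minus strand; Fads3 chr19:10041298-10041597, plus strand).
Fads2: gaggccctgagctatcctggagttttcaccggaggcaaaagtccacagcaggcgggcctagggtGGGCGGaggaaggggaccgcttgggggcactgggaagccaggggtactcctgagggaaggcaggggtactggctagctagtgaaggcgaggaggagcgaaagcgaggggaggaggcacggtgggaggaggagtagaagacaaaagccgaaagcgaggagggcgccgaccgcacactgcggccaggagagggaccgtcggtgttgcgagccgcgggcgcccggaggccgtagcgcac
Fads3: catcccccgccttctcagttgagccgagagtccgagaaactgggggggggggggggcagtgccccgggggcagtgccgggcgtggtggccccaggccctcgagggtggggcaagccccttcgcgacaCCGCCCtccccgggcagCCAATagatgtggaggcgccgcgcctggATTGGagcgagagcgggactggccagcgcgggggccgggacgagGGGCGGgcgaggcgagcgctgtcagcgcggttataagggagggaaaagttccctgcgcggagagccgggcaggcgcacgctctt
The Fads2 window held 1 match to GGGCGG and none to the other motifs. The Fads3 window held 2 matches to CCAAT, one on each strand, and 2 to GGGCGG. Among 32851 promoter windows of this length, 37.4% held CCAAT, 35.7% GGGCGG, 7.15% CACGTG and 1.24% TCACNCCAC, counting both strands. Among the 13139 windows of genes tested here these shares were 37.7%, 59.8%, 9.64% and 1.16%, and no 2 matches overlapped in the windows printed here. In all, 7 of the 10 genes were matched in that table, and Scd1, Scd2 and Fads1 were not.

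Fads2 (NCBI gene 56473) was at 796, 1369 and 1792 CPM in AL replicates 2, 3 and 4. In the LC libraries it was at 249, 309, 269 and 314 CPM, and in the RF libraries at 1668, 1632 and 1356 CPM. The 4 LC values were close to each other and all below the lowest AL value, AL replicate 2. The log2 fold change was −2.21 at LC against AL (SE 0.22, edgeR adjusted p = 0.00014) and 2.44 at RF against LC (SE 0.22, edgeR adjusted p = 7.2e-05).

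Fads1 (NCBI gene 76267) followed its neighbour with smaller steps. It was at 565, 851 and 1048 CPM at AL, at 225, 289, 247 and 252 CPM at LC and at 1095, 1158 and 887 CPM at RF. As with Fads2, AL replicate 2 was the lowest AL library and no LC library overlapped with the other groups. Its log2 fold change was −1.70 (SE 0.19, edgeR adjusted p = 0.00016) under restriction and 2.05 (SE 0.19, edgeR adjusted p = 7.2e-05) on refeeding. The FPKM ratio of Fads2 to Fads1 was 1.7 to 2.07 in the AL, 1.3 to 1.5 in the LC and 1.7 to 1.85 in the RF libraries, so that the LC libraries lay below both other groups in this ratio as well.

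Fads3 (NCBI gene 60527) was much lower in level and changed in both contrasts too. It was at 22.1, 20.4 and 24.8 CPM at AL, at 6.85, 10.5, 6.84 and 4.33 CPM at LC and at 44.7, 44.7 and 34.1 CPM at RF. Here the 3 groups did not overlap at all, and every RF library was above every AL library. The log2 fold change was −1.65 at LC against AL (SE 0.22, edgeR adjusted p = 0.00038) and 2.53 at RF against LC (SE 0.22, edgeR adjusted p = 7.2e-05).

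Fads6 (NCBI gene 328035), a family member whose substrate is not well established, moved least of the Fads genes. It was at 88.1, 109.9 and 111 CPM at AL, at 71.3, 57.9, 66.1 and 57.9 CPM at LC and at 122, 120.4 and 102 CPM at RF. The LC libraries were lower than all others on this scale. Its log2 fold change was −0.70 under restriction (SE 0.13, edgeR adjusted p = 0.0019) and 0.86 on refeeding (SE 0.13, edgeR adjusted p = 0.0012). Under restriction the log2 fold change was −0.36 in log2(FPKM + 1), where the call was lost (limma adjusted p = 0.051), and −0.38 with library totals alone (edgeR adjusted p = 0.043).

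All 4 elongase genes fell under restriction and rose on refeeding. Elovl5 and Elovl6 moved most among them, and their RefSeq promoter windows are shown for that reason, 5′ to 3′ with the same motifs in capitals (GRCm38.p6: Elovl5 chr9:77917115-77917414, plus strand; Elovl6 chr3:129532136-129532435, plus strand).
Elovl5: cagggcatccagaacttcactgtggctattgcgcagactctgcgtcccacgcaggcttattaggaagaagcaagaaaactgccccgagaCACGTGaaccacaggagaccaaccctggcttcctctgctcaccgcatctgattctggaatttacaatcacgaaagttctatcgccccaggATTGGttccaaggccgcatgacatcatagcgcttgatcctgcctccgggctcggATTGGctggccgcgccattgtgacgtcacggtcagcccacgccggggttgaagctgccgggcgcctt
Elovl6: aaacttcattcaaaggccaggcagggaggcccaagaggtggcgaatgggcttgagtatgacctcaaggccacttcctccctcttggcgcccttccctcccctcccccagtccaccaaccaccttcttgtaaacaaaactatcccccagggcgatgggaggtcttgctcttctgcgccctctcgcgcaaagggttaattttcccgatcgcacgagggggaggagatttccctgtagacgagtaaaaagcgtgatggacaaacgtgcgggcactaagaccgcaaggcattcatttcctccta
The Elovl5 window held 2 matches to CCAAT on the minus strand and 1 to CACGTG, and the Elovl6 window held no match to any of the 4 motifs, which says only that these letters are not in these 300 bases.

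Elovl5 (NCBI gene 68801) lengthens polyunsaturated chains after the first desaturation. It was at 1085, 1228 and 1007 CPM in the AL libraries. In LC replicates 1 to 4 it was at 223, 532, 393 and 176 CPM, and in RF replicates 1 to 3 at 843, 1647 and 778 CPM. The AL libraries were close together, while the LC libraries spanned a 3.02-fold range with replicate 2 highest and replicate 4 lowest, and RF replicate 2 was 2.12 times RF replicate 3. The log2 fold change was −1.74 under restriction (SE 0.39, edgeR adjusted p = 0.0096) and 1.72 on refeeding (SE 0.39, edgeR adjusted p = 0.014).

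Elovl2 (NCBI gene 54326) lengthens the longer polyunsaturated chains on the way to docosahexaenoic acid. It was at 679, 645 and 729 CPM at AL, at 383, 289, 454 and 307 CPM at LC and at 872, 792 and 667 CPM at RF. The LC libraries were again apart from both other groups, but LC replicate 2, the highest for Elovl5, was the lowest for Elovl2. Its log2 fold change was −0.93 under restriction (SE 0.16, edgeR adjusted p = 0.0014) and 1.12 on refeeding (SE 0.16, edgeR adjusted p = 0.001). The FPKM ratio of Elovl5 to Elovl2 was 1.99 to 2.73 at AL and 1.39 to 2.99 at RF. At LC it was 0.836, 2.65, 1.25 and 0.825 in replicates 1 to 4, so that replicate 2 lay within the AL range and the other 3 below it.

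Elovl6 (NCBI gene 170439) converts palmitate to stearate, ahead of SCD1 in the route to oleate. It was at 137, 107 and 157 CPM at AL, at 27.4, 88.6, 29.9 and 41.5 CPM at LC and at 227, 413 and 206 CPM at RF. LC replicate 2 was the highest LC library, below the lowest AL library by a small margin in CPM but above it in FPKM (16.5 against 15.56 in AL replicate 3), and RF replicate 2 was the highest of all 10. The log2 fold change was −1.51 under restriction (SE 0.42, edgeR adjusted p = 0.026) and 2.59 on refeeding (SE 0.43, edgeR adjusted p = 0.0048). The call under restriction was lost when AL replicate 2, 3 or 4 or LC replicate 1, 3 or 4 was left out (edgeR adjusted p = 0.05 to 0.089, log2 fold change −1.32 to −1.65), whereas the call on refeeding held without any one library.

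Elovl1 (NCBI gene 54325), which makes saturated and monounsaturated very long chains for sphingolipids, changed least among the genes called. It was at 25.6, 29.5 and 39.4 CPM at AL, at 24.6, 22.4, 20 and 23.6 CPM at LC and at 34.8, 34.8 and 28.9 CPM at RF. The highest LC library, replicate 1, lay just under the lowest AL library, replicate 2. Its log2 fold change was −0.48 under restriction (SE 0.15, edgeR adjusted p = 0.029) and 0.53 on refeeding (SE 0.15, edgeR adjusted p = 0.023). With library totals alone these were −0.16 (edgeR adjusted p = 0.43) and 0.33 (edgeR adjusted p = 0.13), and the deposited FPKM of AL, 15.09 to 22.33, overlapped with those of LC, 14.74 to 17.85. The call under restriction was also lost when AL replicate 3 (edgeR adjusted p = 0.06), AL replicate 4 (0.19) or LC replicate 3 (0.07) was removed, and that on refeeding without LC replicate 3, RF replicate 1 or RF replicate 2 (0.055, 0.076 and 0.086).

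**Figure D2:**
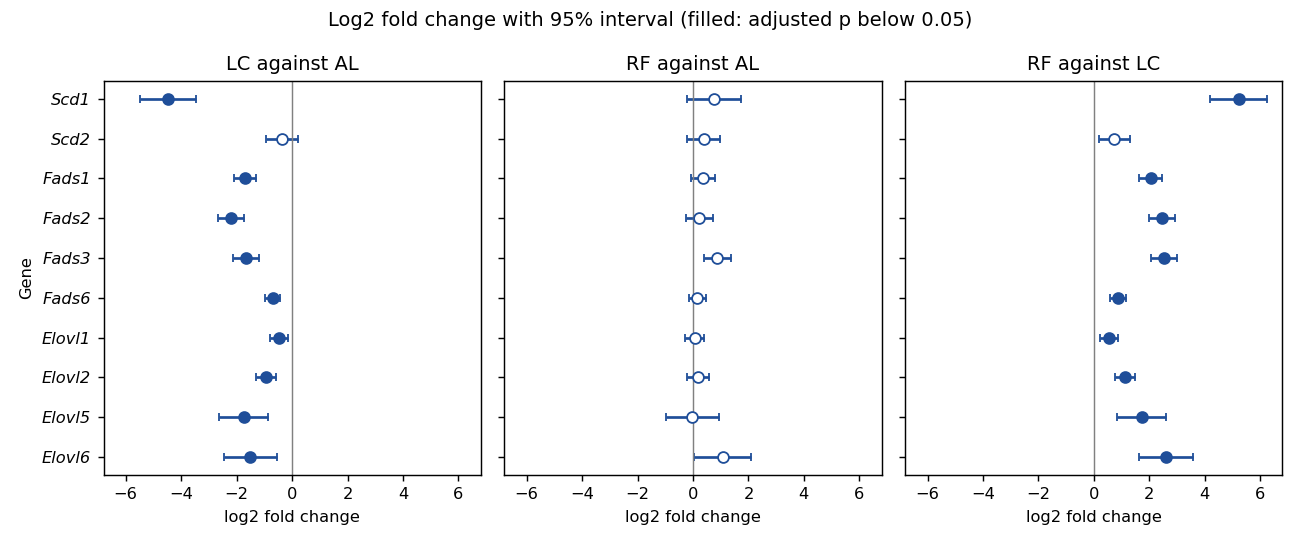
Log2 fold change of each gene in the 3 comparisons with its 95% interval, filled where the edgeR adjusted p was below 0.05. In LC against AL and in RF against LC 9 of 10 points are filled, and in RF against AL none is.

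The comparison of RF with AL set the refed livers beside those of mice fed freely throughout. None of the 10 genes passed with edgeR, DESeq2 or limma, and 0.0547% of all genes passed with edgeR, 0.0156% higher and 0.0391% lower at RF. At an unadjusted p below 0.05, 2 of the 10 genes were higher at RF, against 782 of 12789 genes higher and 1381 in either direction. These were Fads3 (log2 fold change 0.88, 95% interval 0.38 to 1.37, edgeR adjusted p = 0.24) and Elovl6 (1.08, 0.04 to 2.11, edgeR adjusted p = 0.44), the only members of the set whose RF libraries all exceeded all AL libraries. Over all genes tested, 9.32% had every RF library above every AL library and 9.66% had every RF library below. The RF mean was 184% of the AL mean for Fads3, 211% for Elovl6 and 167% for Scd1, where the 95% interval of the log2 fold change was −0.23 to 1.72 (edgeR adjusted p = 0.58). For the other 7 genes the RF mean was 98.5% to 130.4% of the AL mean. The intervals were widest for Elovl6, Scd1 and Elovl5, and for Elovl5 the interval of −0.96 to 0.92 leaves room for a difference in either direction.

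Because FPKM are scaled by length, the genes can be ordered by level within a group. At AL the order was Scd1 (mean 1044 FPKM), Fads2 (443), Elovl5 (397), Fads1 (229), Elovl2 (172), Elovl6 (21.2), Elovl1 (17.5), Fads6 (16.1), Fads3 (6.69) and Scd2 (0.713). The library ranges overlapped between Fads2 and Elovl5, between Fads1 and Elovl2, between Elovl6 and Elovl1 and between Elovl1 and Fads6, and those neighbours cannot be ranked. At LC, Scd1 stood in place 5 at 57.4 FPKM, behind Elovl5 (147), Fads2 (119), Elovl2 (112) and Fads1 (87.6), and each of those 4 overlapped with the next in the order. The LC means of Elovl1 (15.8) and Fads6 (12.3) cannot be ranked against that of Elovl6 (9), since Elovl6 spanned 5.52 to 16.5 FPKM, and in LC replicate 2 it was above Elovl1 and Fads6. At RF, Scd1 was first again at 1867 FPKM, without overlap with Fads2 at 564 FPKM, and Elovl6 at 47.8 FPKM was clear of Fads6 and Elovl1.

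The summed FPKM of the 10 genes was 2347 ± 566 in the AL group, 564 ± 109 in the LC group and 3478 ± 993 in the RF group (mean ± SD of 3, 4 and 3 libraries). The LC sums, 453 to 665, were all below the lowest AL sum of 1939, while the AL and RF ranges overlapped. Scd1 made up 43.7 ± 7.41% of the sum at AL, 9.85 ± 2.65% at LC and 52.5 ± 7.04% at RF. The share of Elovl2 was 7.48 ± 1.17%, 20.3 ± 5.33% and 6.26 ± 1.29% in the same order, and that of Fads1 was 9.75 ± 1.72%, 15.8 ± 2.13% and 9.37 ± 1.65%. The share of Fads2 overlapped across the 3 groups, at 13.5 to 22.1%, 18.3 to 27.9% and 13.8 to 20.7%. These shares are descriptions, and no test was made on them.

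**Figure D3:**
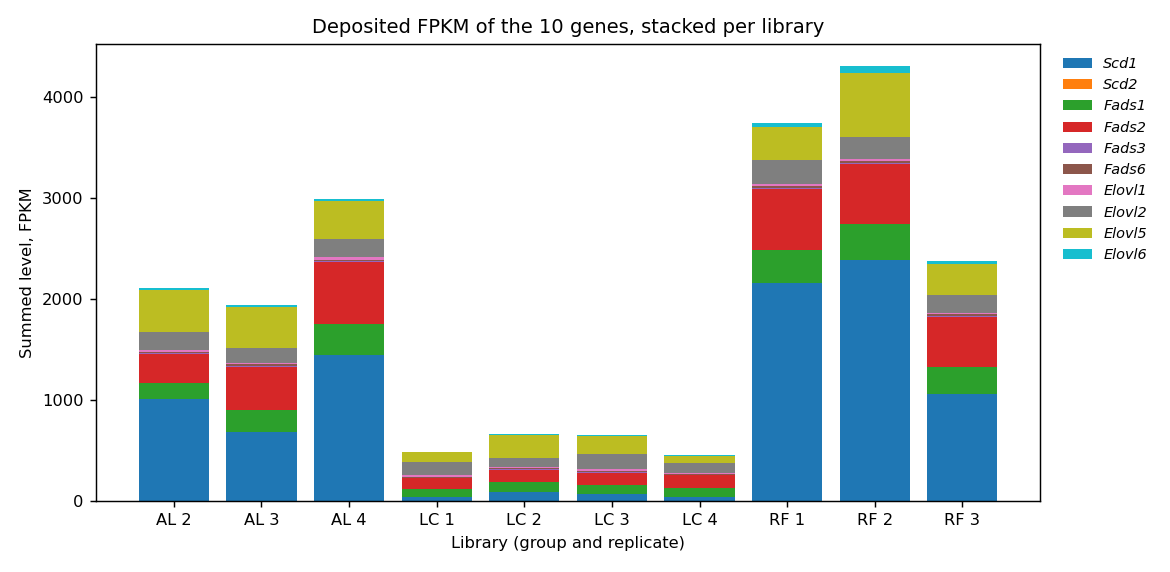
Deposited FPKM of the 10 genes stacked for each library, named by group and replicate. The 4 LC bars reach 453 to 665 FPKM and hold little Scd1, while the AL and RF bars reach at least 1939 FPKM and are mostly Scd1, Fads2 and Elovl5.

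Libraries of a group differed in the same direction over several genes. AL replicate 4 had the highest AL value for 9 of the 10 genes, with Elovl5 the exception, and RF replicate 3 had the lowest RF value for 9, with Scd2 the exception. In the LC group no library led throughout. LC replicate 2 was the highest for Scd1, Fads1, Fads3, Elovl5 and Elovl6 and the lowest for Scd2, Elovl2 and, almost level with LC replicate 4, Fads6. The ratio of the highest to the lowest LC library was 3.23 for Elovl6, 3.02 for Elovl5, 2.79 for Scd1 and 2.42 for Fads3, against 1.26 for Fads2 and 1.28 for Fads1.

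Beyond these 10 genes, 54 genes were listed for the steps around desaturation and elongation, and 46 of them passed the filter. At LC against AL 21 of the 46 fell, 4 rose and 21 did not pass, with a median log2 fold change of −0.42, where 15.6% of all genes were called lower and 16.0% higher. With library totals alone 11 fell and 6 rose. Without AL replicate 3 the count was 12 lower and 1 higher, and without AL replicate 4 it was 14 lower and 2 higher. At RF against LC 16 rose and 2 fell, with a median of 0.37, where 11.4% of all genes were called higher and 10.7% lower, and with library totals alone 14 rose and 4 fell. At RF against AL none passed with edgeR, DESeq2 or limma. With edgeR 8 of the 46 had an unadjusted p below 0.05, against 1381 of 12789 genes tested. In that comparison the log2 fold change was 1.58 for Fasn (edgeR adjusted p = 0.37), which became 0.67 without RF replicate 2 (edgeR adjusted p = 0.67). It was 0.32 for Srebf1 (edgeR adjusted p = 0.65), −0.12 for Elovl3 (0.92) and 0.46 for Insig1 (0.39).

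Among other genes of the same families, Elovl3, an elongase gene of saturated chains, had a mean of 122 ± 47 CPM over the AL libraries, 45.8 ± 16.4 CPM over the LC libraries and 112 ± 12.3 CPM over the RF libraries (SD, with 3, 4 and 3 libraries). It fell under restriction (log2 fold change −1.41, SE 0.30, edgeR adjusted p = 0.0056) and rose on refeeding (1.29, SE 0.29, edgeR adjusted p = 0.013). Its deposited counts were not whole numbers, so its values are in part an estimate. Elovl7 and the sphingolipid desaturase genes Degs1 and Degs2 did not pass in any comparison. Scd4 and Elovl4 were left out by the filter, with at most 4 counts of Scd4 and 0 counts of Elovl4 in any library. Scd3 and Faxdc2 were listed too but were not among the 17359 genes.

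Of 6 genes for the other steps of the elongation cycle, 3 fell under restriction. The reductase gene Hsd17b12 averaged 176 ± 47.2 CPM at AL and 72.4 ± 12.8 CPM at LC (log2 fold change −1.28, SE 0.18, edgeR adjusted p = 0.00045). In refed livers it averaged 185 ± 4.27 CPM, and it was the only one of the 6 called on refeeding (1.35, SE 0.18, edgeR adjusted p = 0.00065). The dehydratase gene Hacd2 (−0.72) and the enoyl reductase gene Tecr (−0.45) fell too, but both lost their calls with library totals alone (edgeR adjusted p = 0.059 and 0.48).

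Of 5 electron donor genes tested, 4 fell under restriction, among them the reductase gene Cyb5r3 (502 ± 131 CPM at AL, 212 ± 19.7 CPM at LC and 539.8 ± 61.1 CPM at RF) and the cytochrome b5 genes Cyb5a (−0.81) and Cyb5b (−0.82). Cyb5r3 had a log2 fold change of −1.25 (SE 0.17, edgeR adjusted p = 0.00035) and of 1.35 on refeeding (SE 0.17, edgeR adjusted p = 4e-04). Cyb5b rose on refeeding as well (0.93, edgeR adjusted p = 0.0018), and Cyb5a did not pass (0.40, edgeR adjusted p = 0.072). The low-level reductase gene Cyb5r1 went the other way, from 6.12 ± 0.99 CPM at AL to 14.8 ± 4 CPM at LC (1.28, SE 0.22, edgeR adjusted p = 0.0012) and back to 6.97 ± 0.983 CPM at RF (−1.09, SE 0.22, edgeR adjusted p = 0.0043).

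Of the 6 genes listed for palmitate supply, 2 fell under restriction. These were the citrate carrier gene Slc25a1 (−0.81, edgeR adjusted p = 0.0053) and the carboxylase gene Acacb (−1.73, edgeR adjusted p = 0.018). Acacb was listed here although its enzyme sits at the mitochondrial surface. In LC replicate 2 Acacb reached 55.3 CPM, while the remaining 3 restricted libraries held 16.1 to 22.0 CPM, and its call was lost without AL replicate 4 (−1.55, edgeR adjusted p = 0.069). Fasn, the fatty acid synthase gene, had AL libraries of 447 to 668 CPM and LC libraries of 218 to 527 CPM, which overlapped, and did not pass (−0.62, edgeR adjusted p = 0.38). On refeeding 5 of the 6 rose, among them Fasn (2.19, SE 0.50, edgeR adjusted p = 0.017), Acacb (2.30, edgeR adjusted p = 0.0088) and Acaca (0.89, edgeR adjusted p = 0.0072), and Acly did not pass (1.60, edgeR adjusted p = 0.057). Acly was at 821 CPM in RF replicate 2 and at 210.1 and 209 CPM in RF replicates 1 and 3. Without RF replicate 2 its log2 fold change was 0.62 (edgeR adjusted p = 0.16), and without RF replicate 1 or 3 it was 1.92 and passed (edgeR adjusted p = 0.041 and 0.044). In RF replicate 2 Fasn was at 3416 CPM, against 901 and 972 CPM in the other RF libraries, and without that library its log2 fold change on refeeding was 1.28 (edgeR adjusted p = 0.019).

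Of 4 acyl-CoA synthetase genes tested, Acsl5 fell (−1.42, edgeR adjusted p = 0.0014) and rose (1.31, edgeR adjusted p = 0.0035), and Acsl4, which prefers arachidonic acid, was called on refeeding alone (1.34, edgeR adjusted p = 0.0019). Of 6 genes tested for enzymes that place acyl chains in phospholipids, 3 fell under restriction, among them Mboat7 (−0.39, edgeR adjusted p = 0.04) and Agpat3 (−0.35, edgeR adjusted p = 0.033), the low-level gene Lpcat1 rose (1.24, edgeR adjusted p = 0.011), and none passed on refeeding. With library totals alone Mboat7 was at −0.08 and Agpat3 at −0.04, and neither was called (edgeR adjusted p = 0.72 and 0.79). Of 5 genes for the peroxisomal step that yields docosahexaenoic acid, 4 fell under restriction, among them Scp2 (−0.65, edgeR adjusted p = 0.0026) and Hsd17b4 (−0.42, edgeR adjusted p = 0.028), and Scp2 alone was called on refeeding (0.56, edgeR adjusted p = 0.0085). Hsd17b4 lost its call with library totals alone (−0.09, edgeR adjusted p = 0.56), and Scp2 kept both.

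Of 10 regulator genes, 3 fell and 2 rose under restriction. Thrsp, a lipogenic factor gene, stood at 815 ± 144 CPM at AL and dropped to 122 ± 78.9 CPM under restriction (−2.74, SE 0.44, edgeR adjusted p = 0.0024), and refed livers held 1213 ± 348 CPM (3.31, SE 0.45, edgeR adjusted p = 0.0021). Insig1 and Insig2, whose products hold SREBP in the endoplasmic reticulum, fell (−0.50 and −1.90, edgeR adjusted p = 0.035 and 0.0054) and rose (0.96 and 1.47, edgeR adjusted p = 0.0023 and 0.022). The fall of Insig1 was lost with library totals alone (−0.19, edgeR adjusted p = 0.36). Srebf1, the gene of SREBP1, was at 377 to 580 CPM at AL and 304 to 420 CPM at LC, with overlap, and did not pass (−0.41, edgeR adjusted p = 0.17), but was called on refeeding (0.73, SE 0.22, edgeR adjusted p = 0.031). That call was lost without LC replicate 1, 3 or 4 (edgeR adjusted p = 0.063 to 0.078) and without RF replicate 2 (0.41, edgeR adjusted p = 0.19). Mlxipl, which encodes the sugar-responsive factor ChREBP, rose under restriction (0.54, edgeR adjusted p = 0.027). Nr1h2, 1 of 2 liver X receptor genes listed, rose too (0.34, edgeR adjusted p = 0.045) and fell on refeeding (−0.60, edgeR adjusted p = 0.0051). It averaged 35 CPM at AL, 44.4 CPM at LC and 29.3 CPM at RF. The other, Nr1h3, averaged 94.7, 91.6 and 89.8 CPM in the same order. Nr1h3 was not called in any comparison (−0.05 at LC against AL, −0.08 at RF against AL and −0.03 at RF against LC). Ppara did not pass in any comparison (log2 fold changes −0.28, −0.15 and 0.13 at LC against AL, RF against AL and RF against LC).

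**Figure D4:**
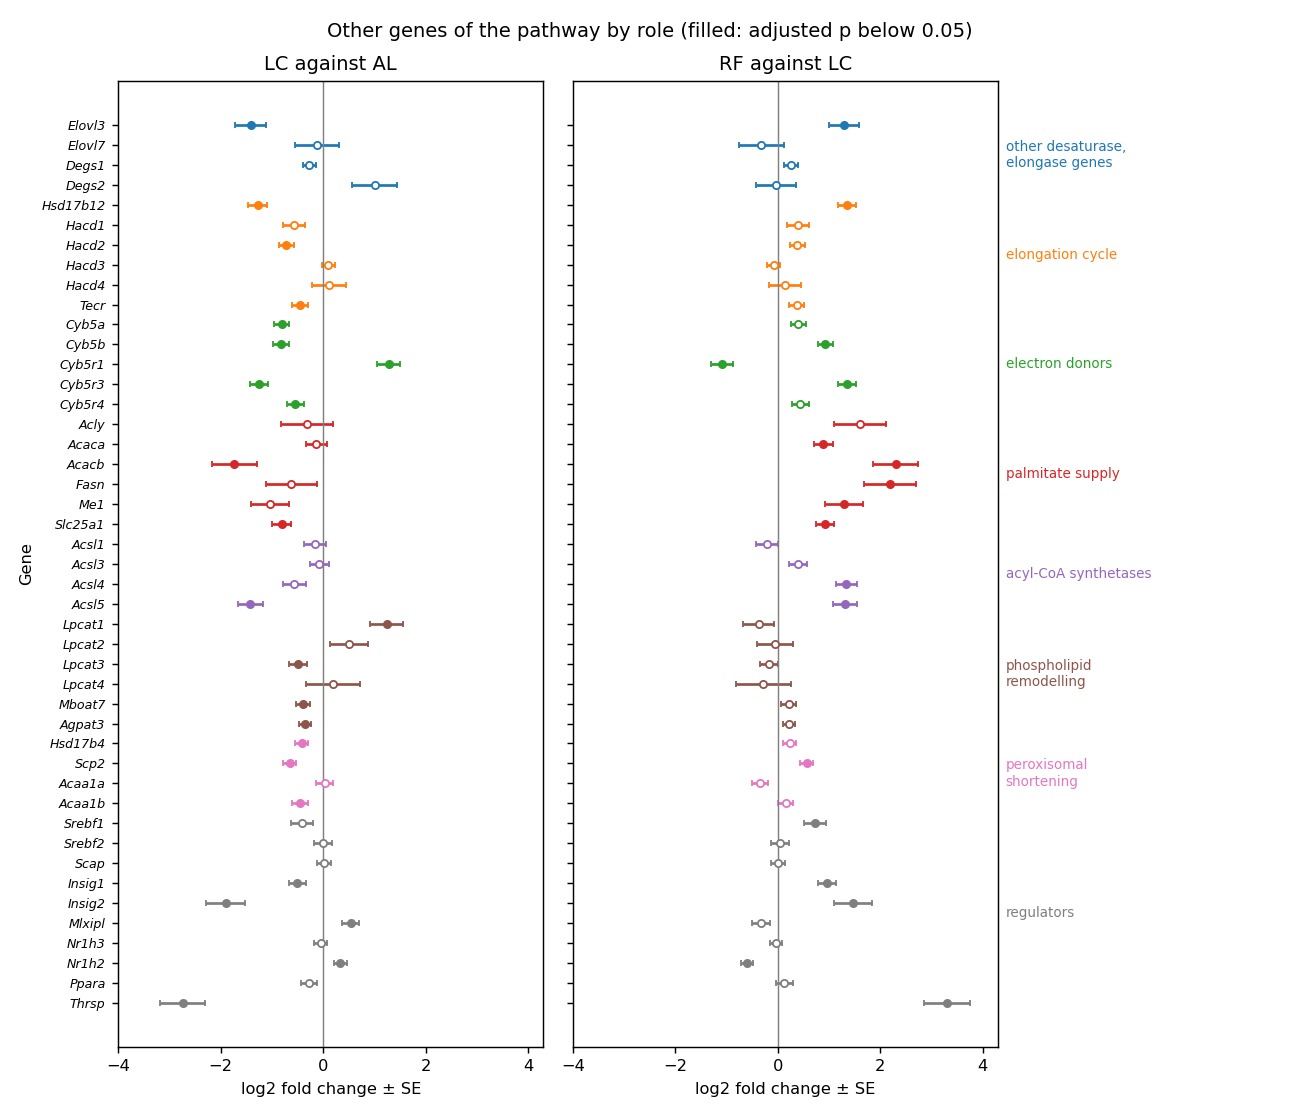
Log2 fold change with its standard error for the tested genes of the surrounding pathway except 1 that is not shown, grouped by role and filled where the edgeR adjusted p was below 0.05. Most filled points lie left of 0 at LC against AL and right of 0 at RF against LC, and Cyb5r1 and Nr1h2 are filled on the opposite side in both.

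Markers of cell types moved with the groups too. Of 10 hepatocyte markers 8 fell under restriction, against 15.6% of all genes, and 5 rose on refeeding, against 11.4%. The falls were −0.47 to −0.81 in log2, and their size depends on the scaling. Without TMM factors the median of all genes moved from 0.05 to 0.36. In FPKM the AL and LC ranges of Alb, Ttr, Apob and Cps1 overlapped, while those of Apoa1, Trf, Serpina1a and Fgb did not. For sinusoidal endothelium 4 of 8 markers rose under restriction, against 16.0% of all genes. The endothelial sums were 230 to 243 CPM at AL, 355 to 387 CPM at LC and 296 to 354 CPM at RF. Of 8 adipocyte markers 7 were in the table and 4 were tested, of which 2 fell under restriction and 1 rose on refeeding. Their summed level was 2953 to 4840.2 CPM at AL, 1030.4 to 1749 CPM at LC and 2992 to 3208 CPM at RF, most of it Car3, which hepatocytes express as well. The defining markers Adipoq, Retn and Plin1 did not exceed 0.078, 0.156 and 0.554 CPM in any library, and Adipoq was at 0 CPM in all RF libraries. Cfd was at 49.2 to 142 CPM at AL, 2.83 to 18.5 CPM at LC and 1.47 to 3.13 CPM at RF. For Kupffer cells and macrophages 1 of 8 markers fell under restriction, with sums of 97.3 to 159 CPM at AL, 98.7 to 176 CPM at LC and 118 to 169 CPM at RF. The stellate sums were 294 to 311, 239.8 to 318 and 349.8 to 387 CPM, the cholangiocyte sums 57.2 to 97.2, 76.7 to 97.5 and 79.4 to 125 CPM and the lymphocyte sums 3.36 to 5.12, 3.45 to 6.14 and 4.55 to 5.73 CPM in the same order. On refeeding 3 of 8 stellate markers rose, against 11.4% of all genes. Of 8 endothelial markers 1 rose and 2 fell, where 10.7% of all genes were lower. Of 8 Kupffer cell and macrophage markers 1 rose. The part of a shift in RNA of hepatocytes or any other of these cell types in the changes of the 10 genes was not tested.

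**Figure D5:**
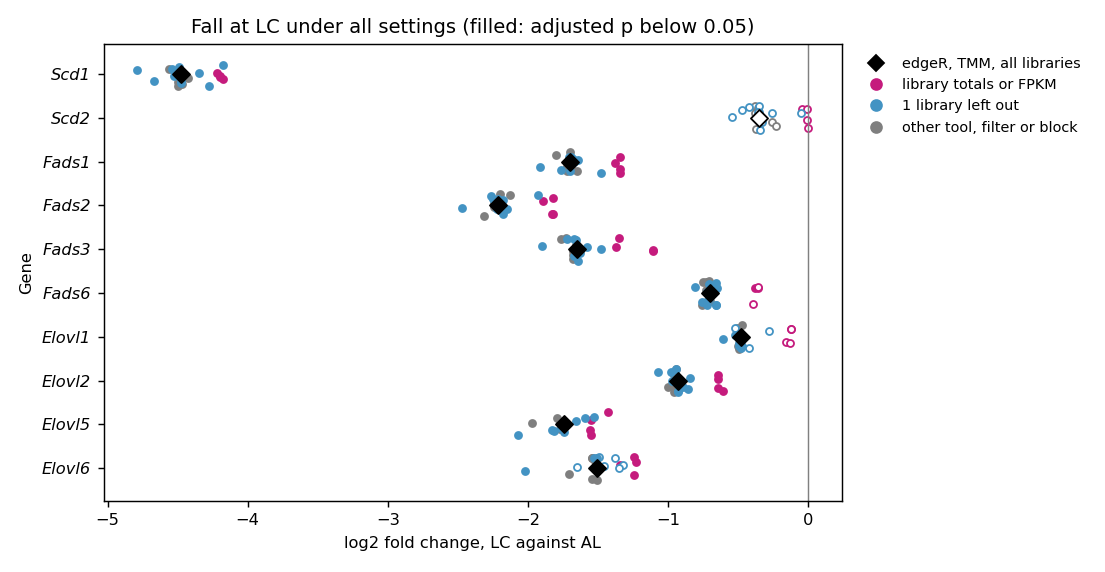
Log2 fold change at LC against AL for each gene under 22 settings, filled where the adjusted p was below 0.05. The values of Scd1, Fads1, Fads2, Fads3, Elovl2 and Elovl5 are filled throughout, while those of Elovl1, Elovl6 and Fads6 are partly open, those of Scd2 are all open, and library totals and FPKM shift all genes toward 0.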

How the data were processed

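Poly(A) RNA of whole mouse liver was sequenced with a kit that does not mark strand, on the DNBSEQ platform, per the labels' protocols. HISAT, Bowtie2 and the build GRCm39 are named in the submitters' processing notes, without roles or versions, and the sources used here give neither the counting step nor the annotation. The authors deposited expected counts per gene for each of 10 libraries, before any scaling, and 10.9% of these values were not whole. FPKM, named so per the file headers, are the authors' values scaled to depth and length.

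Expected counts were rounded and tested with edgeR 4.0.16 (R 4.3.3): filterByExpr, TMM factors, a robust quasi-likelihood fit over all 10 libraries with 1 mean per group, and Benjamini-Hochberg adjustment over all 12789 genes tested, with calls at an adjusted p below 0.05. The standard error is the log2 fold change divided by the square root of F, and 95% intervals use it. Levels are CPM with TMM factors, as mean ± SD. Totals of 13871500 to 15899500 counts per library set the counting precision. Alternatives were DESeq2 1.42.0, limma 3.58.1 (voom with sample weights, and log2 FPKM with offsets of 1 and 0.1), other size factors and filters, the compared groups alone, a replicate block, and each library left out in turn. The fit was also run on simulated counts in which few genes changed. That run does not test the scaling at LC against AL, where 31.5% of genes were called.

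The 10 genes and the pathway and marker lists were chosen with earlier results of these data known. All 10 genes are named. For each role of the pathway list up to 3 genes with the smallest p per comparison could be named. Fasn, Srebf1, Elovl3, Insig1 and Ppara could be named in every comparison, and Nr1h3 is given beside Nr1h2. The rules also cover the 3 nearest genes, among the 17359, on each side of the Scd and Fads clusters. They cover the 5 genes closest in pattern to Scd1, Fads2 and Elovl6 too. Of the genes these rules name, 2 are not reported here. Promoter windows came from RefSeq (GRCm38.p6), which is not the authors' build. RefSeq positions also picked the neighbour genes, whose deposited values were then matched by gene identifier. Beyond that, no coordinate was set against the deposited values.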

Additional observations from a re-analysis of the deposited data

Results flagged for a closer look

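Among 56 tested genes of the desaturase, elongase and pathway lists, 1 had a restricted library far from the other 3. Acacb, the acetyl-CoA carboxylase gene of the mitochondrial surface, reached 55.3 CPM in LC replicate 2, while the remaining restricted libraries held 16.1 to 22.0 CPM. The gap to the nearest library was 0.849 of the group's range, above Dixon's 95% critical value of 0.829 for 4 samples. About 1 in 20 groups passes that value by chance. None of the 10 desaturase and elongase genes passed it.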

How the results depend on the processing

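Over 21 alternatives the direction of all 10 genes at LC against AL and at RF against LC held, apart from Scd2 in log2(FPKM + 0.1), where the value at LC against AL was 0.00. Of 210 values per comparison, 194 kept their side of the threshold at LC against AL and 16 lost the call. At RF against LC 201 kept it, 7 lost it and 2 gained it. With 1 library left out, 7 to 9 genes were called at LC against AL and 8 to 10 at RF against LC.

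At RF against AL no gene was called under any alternative, but 7 uncalled values changed sign: Fads2 ranged from −0.03 to 0.52, Elovl1 from −0.07 to 0.25 and Elovl5 from −0.45 to 0.16 with 1 library left out, Elovl1 was −0.01 with limma voom and Elovl5 was 0.09 with library totals. The whole table gave 7 calls there, 100 with DESeq2, 45 with limma voom, 13 without a filter, 2 with each of the 3 FPKM settings and 1 to 13 with 1 library left out. Leaving out 1 library gave 2110 to 4353 calls at LC against AL, 1435 to 3141 at RF against LC and 13 to 27 in the pathway list at LC against AL. The cause was not tested.

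With the replicate number as a block, 9, 0 and 9 genes were called at LC against AL, RF against AL and RF against LC. With group means taken out, same-numbered libraries of different groups correlated at −0.0432 to 0.232 over 8 pairs, with 2 pairs above 0.1. Differently numbered libraries correlated at −0.2 to 0.102 over 25 pairs, with 1 above 0.1. The highest values were those of LC replicate 1 with RF replicate 1 (0.232) and LC replicate 2 with RF replicate 2 (0.172). The labels state no pairing, so the main fit has no block, and whether equal numbers pair libraries is not known. With 3 or 4 libraries per group, a miss at RF against AL does not show equal levels. Scd2, at 38 to 107 counts, is the gene most limited by depth.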

Other observations

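Scd1 and Scd2 lie with Scd4 and the unmeasured Scd3 in a cluster on chromosome 19, and Fads1, Fads2 and Fads3 lie in another. Neighbours were the nearest genes in RefSeq order among the 17359, and RefSeq genes outside these were passed over. Around the Scd cluster 5 of 6 such neighbours were tested. Ndufb8, a subunit gene of respiratory complex I, fell under restriction (log2 fold change −0.45, SE 0.13, edgeR adjusted p = 0.02). Sec31b, a gene of the coat of vesicles leaving the endoplasmic reticulum, rose (1.03, SE 0.18, edgeR adjusted p = 0.0012) and fell on refeeding (−0.52, SE 0.17, edgeR adjusted p = 0.044). Cwf19l1 (−0.13), Bloc1s2 (−0.04) and Hif1an (−0.12) did not pass under restriction, and Pkd2l1 was below the filter.

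Around the Fads cluster 5 of 6 neighbours were tested, of which 2 fell and 2 rose under restriction. Over all genes tested 15.6% were lower and 16.0% higher there. The ferritin heavy chain gene Fth1 (−0.50, edgeR adjusted p = 0.031) and Tmem258, a gene of protein glycosylation (−0.36, edgeR adjusted p = 0.03), fell. Rab3il1 (0.67, edgeR adjusted p = 0.046) and Myrf (0.71, edgeR adjusted p = 0.0061) rose. Fen1, a DNA repair nuclease gene, did not pass (−0.41, edgeR adjusted p = 0.27), and Best1 was below the filter. On refeeding Tmem258 rose (0.47, edgeR adjusted p = 0.013) and Myrf fell (−0.51, edgeR adjusted p = 0.039). Under restriction no tested neighbour in either region fell by as much as Fads1, Fads2, Fads3 or Scd1.

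The genes closest in pattern were sought among 9292 genes by the Pearson r of log2 CPM over the 10 libraries. For Fads2 they were Cyb5r3 (0.993), Dtd2 (0.987), Tma7 (0.986), Calm3 (0.986) and Timm17b (0.985). For Scd1 they were Qdpr (0.977), Srd5a1 (0.977), Cyb5r3 (0.976), Sec14l2 (0.97) and Mkks (0.969). For Elovl6 they included Acacb (0.978), Dhx58 (0.972), Slc25a17 (0.969) and Nudt7 (0.963). The libraries share their groups and scaling, and the restricted libraries stand apart for most of these genes, so these values are descriptions. Cyb5r3, which encodes the reductase that feeds electrons to the desaturases, was in the lists of both Scd1 and Fads2.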
